A study of Mus musculus with 5 samples.

Results

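The 10 genes described here (Cd34, Lgr5, Sox9, Nfatc1, Lhx2, Tcf7l1, Fgf18, Postn, Cd200 and Tbx1) are genes long used to mark or control stem cells of the hair follicle bulge. They were chosen by symbol, with earlier results of these data known. Each matched 1 row of the deposited table of 56691 mouse gene IDs. Messenger RNA was sequenced from cells of the back skin of mice aged 28 days. There were 2 bulk libraries (bulk 1 and bulk 2), which the labels call epidermal basal cells of WT genotype and which took the entire isolated population. The other 3 libraries (GFP 1, GFP 2 and GFP 3) came from cells sorted for GFP, which the labels call epidermal stem cells of the genotype "Lrig1 positive". For the construct that carries GFP, the sort gates, the strain and any treatment, details were not given in the sources used here. Bulk 1 and GFP 1 carry the same number in their titles (4143), as do bulk 2 and GFP 2 (4145), while GFP 3 (4146) has no bulk library. The labels do not say that this number names an animal. Nor do they say that libraries of a group came from separate animals. The p-values therefore concern these libraries and cannot be read as a spread between animals.

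The bulge is the part of the outer root sheath below the sebaceous gland where slow-cycling stem cells rest between rounds of hair growth. These cells sit next to the Lrig1-marked junctional zone, which lies higher in the follicle and feeds the upper follicle and sebaceous gland. Sox9, Lhx2, Nfatc1, Tcf7l1 and Tbx1 encode transcription factors that keep bulge cells in their undivided state or renew them. CD34 and CD200 are surface proteins used to sort them, LGR5 is a receptor for R-spondin ligands of the Wnt pathway, FGF18 is a secreted factor that holds follicles at rest, and periostin (Postn) is a secreted matrix protein. None of these genes is exclusive to the bulge. Cd34 is also expressed in endothelium, mast cells and dermal fibroblasts, Postn in fibroblasts, and Sox9 and Lgr5 along the lower outer root sheath of growing follicles.

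Upstream sequences in the RefSeq promoter table (build GRCm38.p6) were matched for 7 of the 10 genes, with 10 windows in all. No window was analysed for Lgr5, Sox9 and Nfatc1. The windows of 4 members are shown: Cd34, Cd200, Fgf18 and Postn. Each is 240 bases long and runs 5′ to 3′ on the gene's strand, from 250 to 11 bases before a RefSeq transcript start. Capitals mark every match, on either strand, to 6 motifs. The TATA box was searched as TATAAA, the motif of TCF factors as CTTTGA, that of SOX factors as ACAATG, that of NFAT factors as GGAAA, that of LIM homeodomain factors as TAATTA and that of T-box factors as AGGTGT.
Cd34: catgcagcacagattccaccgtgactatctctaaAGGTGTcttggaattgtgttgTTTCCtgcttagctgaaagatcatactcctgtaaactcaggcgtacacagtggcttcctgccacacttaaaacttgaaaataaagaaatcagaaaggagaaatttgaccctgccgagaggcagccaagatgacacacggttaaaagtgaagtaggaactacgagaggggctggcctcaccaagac
Cd200: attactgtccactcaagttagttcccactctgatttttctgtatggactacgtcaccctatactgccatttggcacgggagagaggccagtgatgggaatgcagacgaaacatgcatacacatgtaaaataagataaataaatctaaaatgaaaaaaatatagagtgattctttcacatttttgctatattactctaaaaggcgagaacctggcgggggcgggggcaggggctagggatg
Fgf18: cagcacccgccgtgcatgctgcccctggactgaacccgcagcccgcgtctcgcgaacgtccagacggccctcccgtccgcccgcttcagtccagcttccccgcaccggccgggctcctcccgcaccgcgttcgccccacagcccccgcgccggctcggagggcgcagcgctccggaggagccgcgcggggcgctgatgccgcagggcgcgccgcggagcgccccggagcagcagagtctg
Postn: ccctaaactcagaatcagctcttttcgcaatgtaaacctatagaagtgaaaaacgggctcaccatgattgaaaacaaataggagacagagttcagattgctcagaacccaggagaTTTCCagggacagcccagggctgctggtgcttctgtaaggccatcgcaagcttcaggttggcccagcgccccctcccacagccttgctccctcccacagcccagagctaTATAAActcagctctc
The windows lie at chr1:194938571-194938810, plus strand (Cd34), at chr16:45409064-45409303, minus strand (Cd200), at chr11:33147411-33147650, minus strand (Fgf18) and at chr3:54360857-54361096, plus strand (the downstream of 2 Postn starts). The Fgf18 window was the most GC-rich of the members' windows, at 77.9% G and C with 37 CpG dinucleotides. Those of Cd34 and Cd200 held 45.8% and 42.5% G and C with 5 and 6 CpG. The median of all 32851 windows was 52.1% with 5 CpG. The downstream Postn start was the only one of the 10 member windows with TATAAA, which began 26 bases before the start. TATAAA was present in 12.1% of all windows. GGAAA was found in 4 of the 10 member windows (54.1% of all windows) and AGGTGT in 2 (11.5%). The TCF, SOX and LIM homeodomain motifs were in none of the 10, against 13.5%, 10.4% and 4.77% of all windows. The matches describe these letters only. The counts come from an alignment to GRCm39, so no position was joined to a count.

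All 10 bulge genes were detected in every library. The libraries held 56829330 to 105887450 counts. The members had from 189 counts (Fgf18 in GFP 2, exact Poisson 95% interval 163 to 218, counting error only) to 20654 (Sox9 in bulk 2). All 10 passed the filter on low counts. Levels below are CPM (each count as its share of the library, after TMM scaling), and groups are given as mean ± SD (n = 2 bulk, n = 3 GFP). To compare genes with each other, CPM was divided by the length of the longest GENCODE M21 transcript in kilobases. On that per-length scale Sox9 led in bulk with 39.8 ± 7.06, followed by Nfatc1 with 23.9 ± 2.80, and the ranges of these genes did not overlap each other or the next. Cd200 (12.2 ± 2.02), Tbx1 (11.2 ± 0.293) and Lhx2 (10.8 ± 2.05) had overlapping ranges, and Postn followed at 7.04 ± 0.573. Fgf18 (3.90 ± 1.96), Cd34 (3.67 ± 1.08) and Tcf7l1 (3.35 ± 0.220) overlapped again, and Lgr5 was lowest at 0.877 ± 0.105. The order in GFP libraries was the same at the top (Sox9, Nfatc1, Cd200, Tbx1) and at the bottom (Tcf7l1, Lgr5). In between, Postn (12.4 ± 8.08) stood above Lhx2 (11.7 ± 3.32) and Cd34 (5.70 ± 1.94) above Fgf18 (3.13 ± 0.908), in each case with overlapping ranges.

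**Figure D1:**
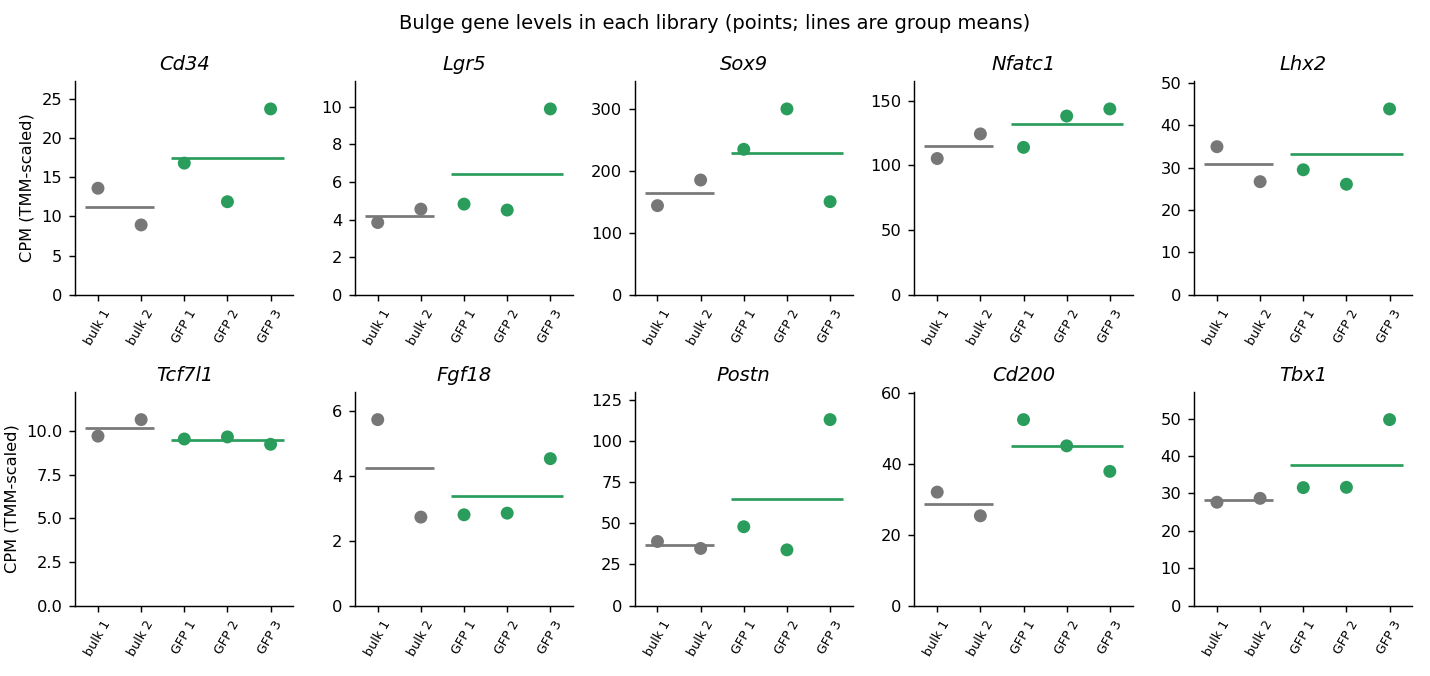
Level of each bulge gene (vertical axes, TMM-scaled CPM from 0) in the 2 bulk libraries (grey) and the 3 GFP libraries (green); points are libraries and lines are group means. GFP 3 is the highest library for 6 of the 10 genes, while Sox9 is highest in GFP 2 and Cd200 in GFP 1.

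None of the 10 bulge genes differed between GFP-sorted and bulk cells at an adjusted p under 0.05 (edgeR quasi-likelihood test, Benjamini-Hochberg over 18583 genes). Adjusted p ran from 0.178 for Cd200 to 0.886 for Lhx2. Over all genes 5.28% were called, 5.14% lower and 0.145% higher in GFP, so a count of 0 in 10 genes is near the background. At an unadjusted p under 0.05 there was 1 member, Cd200, beside 2944 of the 18583 genes. Neither the DESeq2 Wald test nor limma-voom called any member, against 8.06% and 5.52% of all genes by these tests. The log2 change (GFP over bulk) was positive for 8 members and negative for 2, Tcf7l1 and Fgf18. The median of the 10 was 0.45, beside 0.05 over all genes tested. It was not particular to bulge genes. Among epithelial lists described below, the median was 0.55 for basal epidermis and 0.52 for outer root sheath and companion layer. It was 0.44 for upper follicle genes and -1.41 for suprabasal genes. A p that misses the threshold does not show equal levels, and the 95% intervals of the log2 changes ran from as low as -1.22 (Fgf18) to as high as 1.89 (Postn).

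Genes of hair-forming cells give a scale for these intervals. Of 15 genes made in the growing hair and its inner sheath, all 15 were lower in GFP, with a median log2 change of -5.59. Of these, Foxn1 was not called without bulk 2 (edgeR adjusted p = 0.187) or GFP 2 (0.0516), nor Msx2 without bulk 2 (0.0642). The summed level of all 15 was 1740 and 3321 CPM in bulk and 78.9, 81.0 and 80.1 CPM in GFP 1, 2 and 3. The summed level of the 10 bulge genes was 416 and 452 CPM in bulk and 544, 604 and 586 CPM in the GFP libraries. Sox9 and Nfatc1 made up most of this sum, so it says little about the other members. The lower bounds of the 10 members all lay at or above -1.22. In bulk RNA, fewer cells of a type and less RNA per cell cannot be told apart.

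**Figure D2:**
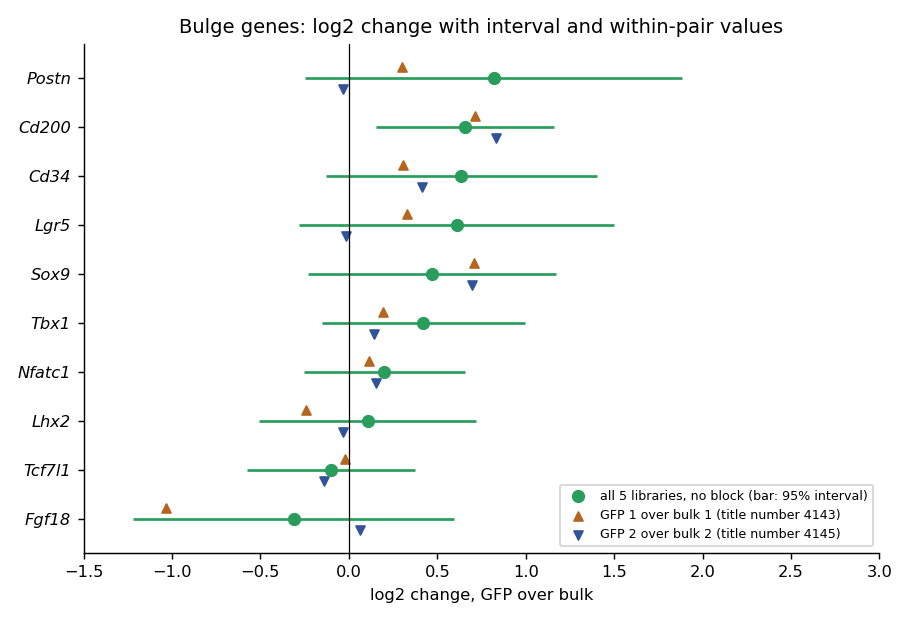
Log2 change of each bulge gene (horizontal axis, GFP over bulk; 0 is no difference) from all 5 libraries with its 95% interval (green), and the log2 ratios within title numbers 4143 and 4145 (triangles). The interval of Cd200 alone lies above 0 (0.15 to 1.16), and the pairs differ most for Fgf18 (-1.03 and 0.06).

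Among the surface markers, Cd200 (ENSMUSG00000022661.15), which encodes an inhibitory signal to myeloid cells, was at 32.1 and 25.4 CPM in bulk 1 and 2. It was at 52.5, 45.1 and 37.9 CPM in GFP 1, 2 and 3, so all GFP libraries lay above both bulk libraries. Its log2 change was 0.66 ± 0.22 (SE; edgeR adjusted p = 0.178). With the title number as a block it was called (0.77 ± 0.15, edgeR adjusted p = 2.34e-06). With the block and the libraries' trend on gene length and GC content removed it was also called (0.71, adjusted p = 2.49e-04). These fits rest on 2 pairs. The first called 36% of all genes (16.4% higher and 19.7% lower in GFP) and the second 32.3% (17.1% higher and 15.2% lower). With the block alone the SE was 0.144 for both Sox9 and Postn. Their log2 ratios within title numbers were 0.71 and 0.70 for Sox9 and 0.30 and -0.04 for Postn. A small p-value with the block therefore does not show that the 2 pairs of a gene agreed. Cd34 (ENSMUSG00000016494.10), a sialomucin of stem cell and vessel surfaces, was at 13.6 and 8.91 CPM in bulk and 16.8, 11.9 and 23.7 CPM in GFP 1, 2 and 3. GFP 2 lay below bulk 1, so the groups overlapped, although GFP was above bulk within both title numbers (log2 ratios of 0.31 and 0.41). The log2 change of Cd34 was 0.64 ± 0.33 (edgeR adjusted p = 0.421, and 0.0693 with the block).

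Lgr5 (ENSMUSG00000020140.16), the receptor gene, was the least abundant member per length. It was at 3.85 and 4.56 CPM in bulk and 4.83, 4.51 and 9.89 CPM in GFP 1, 2 and 3. Bulk 1, bulk 2, GFP 1 and GFP 2 thus lay close together, and GFP 3 stood 2.12-fold above the mean of GFP 1 and 2. The log2 change was 0.61 ± 0.39 (edgeR adjusted p = 0.516), and 0.14 without GFP 3 (adjusted p = 0.752).

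Of the 5 transcription factor genes, Sox9 had the largest difference within title numbers. Sox9 (ENSMUSG00000000567.6), which is needed to form and keep the bulge, was at 144 and 185 CPM in bulk and 235, 300 and 150 CPM in GFP 1, 2 and 3. GFP 3 lay between the 2 bulk libraries, so the groups overlapped. The log2 ratio was 0.71 for GFP 1 over bulk 1 and 0.70 for GFP 2 over bulk 2. The log2 change was 0.47 ± 0.30 over all libraries (edgeR adjusted p = 0.522). It was 0.70 ± 0.14 with the block, where it was called (adjusted p = 1.2e-05), and 0.77 with the block and trend removed (adjusted p = 1.48e-04).

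Nfatc1 (ENSMUSG00000033016.17), a calcineurin-dependent factor that holds bulge cells quiescent, varied little. It was at 105 and 124 CPM in bulk and 114, 138 and 144 CPM in GFP 1, 2 and 3, with overlapping groups and a log2 change of 0.20 ± 0.20 (edgeR adjusted p = 0.684). Lhx2 (ENSMUSG00000000247.12), a LIM homeodomain factor, was at 34.9 and 26.7 CPM in bulk and 29.5, 26.1 and 43.8 CPM in GFP 1, 2 and 3. The log2 change of Lhx2 was 0.11 ± 0.27 (edgeR adjusted p = 0.886). Its sign rested on GFP 3 and bulk 2: it was -0.15 without GFP 3 and -0.09 without bulk 2. Tcf7l1 (ENSMUSG00000055799.14), a repressor of Wnt target genes, was the most even member. Its 5 libraries ranged from 9.25 CPM in GFP 3 to 10.7 CPM in bulk 2, with every GFP library below both bulk libraries and a log2 change of -0.10 ± 0.21 (edgeR adjusted p = 0.854). Tbx1 (ENSMUSG00000009097.11), a T-box factor of bulge self-renewal, was at 27.6 and 28.7 CPM in bulk and 31.5, 31.6 and 49.7 CPM in GFP 1, 2 and 3. All GFP libraries lay above both bulk libraries, and GFP 1 and 2 lay close to them. The log2 change of Tbx1 was 0.42 ± 0.25 (edgeR adjusted p = 0.484), and 0.16 without GFP 3.

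Among the secreted factors, Postn (ENSMUSG00000027750.17) was at 38.9 and 34.7 CPM in bulk and 47.9, 33.8 and 113 CPM in GFP 1, 2 and 3. GFP 3 was 2.77-fold above the mean of GFP 1 and 2, and GFP 2 lay below both bulk libraries. The log2 change was 0.82 ± 0.46 (edgeR adjusted p = 0.458) and 0.15 without GFP 3. Postn was called in a fit without a filter on low counts (log2 change 0.82, edgeR adjusted p = 0.0175), which called 5.84% of all genes, and with the block and the trend removed (0.39, adjusted p = 0.0268), but not with the block alone (0.13, adjusted p = 0.51). Fgf18 (ENSMUSG00000057967.13) stood at 5.74 CPM in bulk 1 but 2.73 CPM in bulk 2, a 2.10-fold gap inside the bulk group. The GFP libraries were at 2.80, 2.85 and 4.53 CPM, all between the bulk libraries. Its log2 change was -0.31 ± 0.39 (edgeR adjusted p = 0.754), and 0.32 without bulk 1. With the block it was called lower (-0.49, adjusted p = 0.0466), although the within-number log2 ratios were -1.03 and 0.06.

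Across the members, groups did not overlap for 3 of 10 genes: Cd200 and Tbx1 were higher and Tcf7l1 lower in every GFP library. Among all genes tested 33% had groups that did not overlap, 14.6% with GFP above and 18.5% with GFP below. The log2 ratios within title numbers 4143 and 4145 had the same sign for 7 of 10 members, 5 higher (Cd34, Sox9, Nfatc1, Cd200 and Tbx1) and 2 lower (Lhx2 and Tcf7l1). This compares with 77.3% of all genes. Both shares are close to the background.

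GFP 3 stood apart from GFP 1 and 2 in these genes. It was the highest of the 5 libraries for 6 of the 10 members (Cd34, Lgr5, Nfatc1, Lhx2, Postn and Tbx1), and it was the highest for 24.7% of all genes tested. Relative to the mean of GFP 1 and 2, the level in GFP 3 ran from 0.562-fold for Sox9 and 0.776-fold for Cd200 to 2.12-fold for Lgr5 and 2.77-fold for Postn. GFP 3 also differed in other respects. It had 53714 counts of Xist and 62 of the Y-linked Ddx3y, against 0 to 8 and 1750 to 4462 in the other libraries. These are counts of female cells in GFP 3 and of male cells elsewhere, so GFP 3 differed in sex from GFP 1 and 2. Across 18107 genes, which are not independent replicates, its deviation from the mean profile had a Spearman rho of 0.119 with transcript length, beside -0.344 in GFP 1 and -0.150 in GFP 2. Their part in the levels of the bulge genes was not tested. Basal epidermis genes were highest in GFP 3 for 9 of 11 genes, other bulge-associated genes for 10 of 21, upper follicle genes for 1 of 10 and hair matrix genes for 0 of 15. The genes whose pattern over the 5 libraries was nearest to that of Cd34 were Zdhhc2, Taf1d and Mbip, with root mean square differences of 0.051, 0.068 and 0.069 in centred log2 CPM over 5 libraries. For Lgr5 the nearest genes were Tra2a, Cep95 and Gnl3 (0.034, 0.061 and 0.071). Tra2a was at 114 and 134 CPM in bulk and 145, 127 and 284 CPM in GFP 1, 2 and 3.

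**Figure D3:**
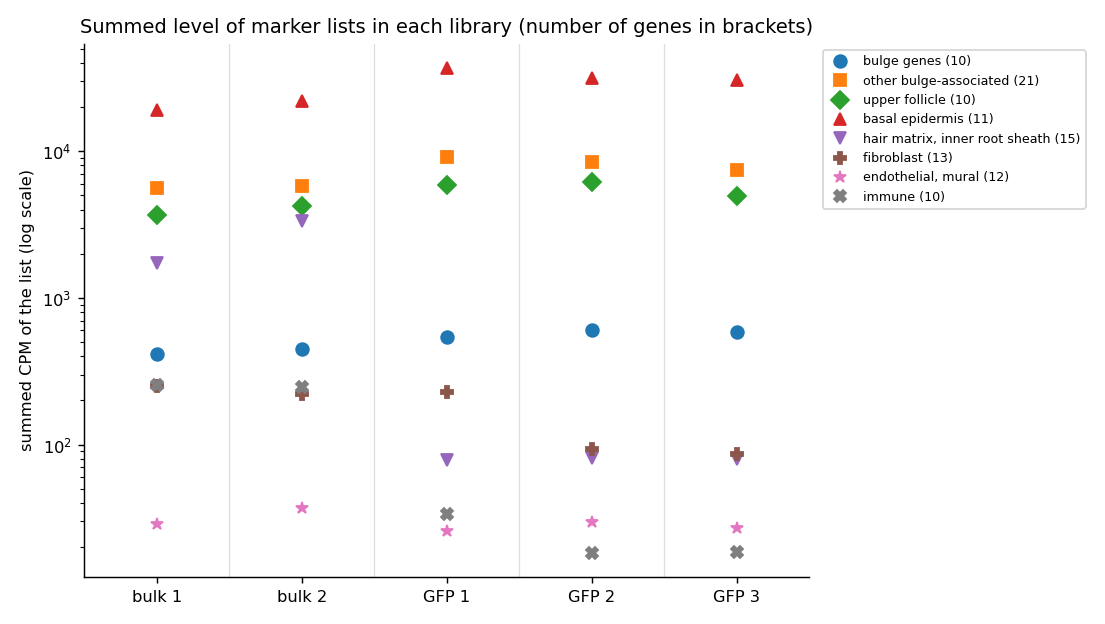
Summed level of marker lists (vertical axis, CPM on a log scale) in each library (horizontal axis); each symbol is 1 list. The bulge gene sum, most of it Sox9 and Nfatc1, lies between 416 and 604 CPM in all 5 libraries. The hair matrix sum is above 1700 CPM in bulk and between 78.9 and 81.0 CPM in GFP.

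Other cell types that express some members were followed by their own markers. Fibroblast genes together reached 251 and 222 CPM in bulk, 230, 93.6 and 86.7 CPM in GFP 1, 2 and 3. This sum was thus lowest in GFP 3, where Postn was highest. The list did not move as one: Col1a1 was at 72.4, 13.6 and 4.17 CPM in GFP 1, 2 and 3, whereas Col6a1 was highest in GFP 3 (25.8, 24.9 and 45.9 CPM) and Col5a1 was at 9.65, 9.68 and 10.98 CPM. Of the 11 tested genes 1, Col6a1, was highest of all 5 libraries in GFP 3. Of 11 tested fibroblast genes Dcn and Pdgfra were called lower, against 5.14% of all genes. Dcn was not without bulk 1 (edgeR adjusted p = 0.0894). Leaving out bulk 2, GFP 1 or GFP 2 ended the call of Pdgfra (0.504, 0.098 and 0.0535), as did removal of the trend on length and GC content (0.0659). With the block 8 fibroblast genes were called lower, against 19.7% of all genes. The 2 title numbers did not agree for all of these. Their log2 ratios were -0.04 and -1.95 for Col1a1 and -0.07 and -2.32 for Col1a2, but -1.56 and -1.78 for Dcn. Endothelial and mural genes together reached 29.0 and 37.2 CPM in bulk, 25.7, 29.8 and 27.2 CPM in GFP, most of it Cspg4 (19.2 to 27.7 CPM). The other 11 genes of the list reached at most 2.96 CPM in bulk (Vwf in bulk 2) and 1.57 CPM in GFP (Flt1 in GFP 1). Cdh5 was at 0.266, 0.0302 and 0.0107 CPM in GFP 1, 2 and 3, Pecam1 at 0.849, 0.483 and 0.493 CPM, Flt1 at 1.57, 0.799 and 0.836 CPM and Tek at 0.557, 0.618 and 0.493 CPM. None of the 11 tested genes was highest of all 5 libraries in GFP 3, where Cd34 was highest. The part of fibroblast or endothelial RNA in the levels of Postn and Cd34 was not tested. Of 11 tested, Tie1, Cldn5 and Vwf were called lower, none of them without bulk 1 or without bulk 2, and Vwf also not without GFP 1 or GFP 2 (edgeR adjusted p = 0.0669 and 0.05). Removal of the trend on length and GC content also ended the call of Vwf (edgeR adjusted p = 0.0722). With the block 7 genes of this list were called lower. Mast cell genes together reached 8.73 and 10.9 CPM in bulk, 0.697, 0.679 and 0.675 CPM in GFP, most of it Kit. Kit is also expressed in melanocytes, and Ms4a2 and Fcer1a had no count in any library. Of 3 tested mast cell genes Kit and Mcpt4 were lower, Mcpt4 not without bulk 1, bulk 2 or GFP 1 (edgeR adjusted p = 0.167, 0.186 and 0.0522). All 10 immune and 8 of 9 melanocyte genes were lower. Of the immune genes Trac, Lyz2 and Tyrobp were not called without bulk 1 (edgeR adjusted p = 0.107, 0.135 and 0.173), without bulk 2 (0.106, 0.0571 and 0.0842) or without GFP 2 (0.0554, 0.055 and 0.0782), nor Trac without GFP 1 (0.0549). Of 8 tested dermal papilla genes 4 were lower, 0 to 3 of them when 1 library was left out (0 without bulk 2), and 7 with the block.

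Among epithelial genes, those of basal epidermis together reached 19050 and 22150 CPM in bulk, 36780, 31720 and 30420 CPM in GFP, most of it Krt5 and Krt14. None of the 11 basal genes was called by edgeR, while 5 had an unadjusted p under 0.05, beside 2944 of all 18583 genes. DESeq2 called 2 of the 11 higher and limma-voom 0. With the block 6 were called higher, and 10 with the block and the trend removed, against 16.4% and 17.1% of all genes. Of 10 suprabasal genes 5 were lower, and 10 with the block, against 5.14% and 19.7% of all genes. Sbsn was not called without bulk 1 (edgeR adjusted p = 0.0863) or bulk 2 (0.0558), nor Flg without bulk 2 (0.0696). In the upper follicle list, which covers the zone that Lrig1 marks, Fst rose of 10 tested, but was not called without bulk 1, bulk 2, GFP 1 or GFP 2 (edgeR adjusted p = 0.206, 0.322, 0.0564 and 0.117). DESeq2 called 3 upper follicle genes higher and limma-voom 1, and with the block 6 were called higher. Lrig1 itself was at 163 and 155 CPM in bulk and 210, 226 and 213 CPM in GFP (log2 change 0.44 ± 0.18, edgeR adjusted p = 0.292). All GFP libraries lay above both bulk libraries. Lrig1 was called higher with the block (edgeR adjusted p = 0.00676) and with the block and the trend removed (8.33e-04). Of 9 outer root sheath and companion layer genes the companion keratin Krt75 fell (-2.85 ± 0.42) and Krt16 rose (1.19 ± 0.25). Krt16 was not called without bulk 1, bulk 2, GFP 1 or GFP 2 (edgeR adjusted p = 0.282, 0.117, 0.0633 and 0.1). DESeq2 called 1 gene of this list lower and 3 higher, and limma-voom 1 lower and 1 higher. With the block 1 was called lower and 6 higher.

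Of 21 other genes associated with the bulge, all tested, edgeR called none. An unadjusted p under 0.05 was found for 5 (Wif1, Barx2, Igfbp5, Foxc1 and Gli1), beside 2944 of all 18583 genes tested. DESeq2 called 1 of the 21 lower and limma-voom 0. The median log2 change was 0.33, 14 genes being positive and 7 negative. Krt15, a keratin used to mark the bulge but also made in basal epidermis, was at 4158 and 4379 CPM in bulk, 7498, 6722 and 5392 CPM in GFP (edgeR adjusted p = 0.389). Foxc1, a factor of bulge quiescence, was at 63.7 and 44.1 CPM in bulk and 80.3, 85.5 and 70.7 CPM in GFP (0.55 ± 0.22, edgeR adjusted p = 0.269). The Wnt inhibitor gene Wif1 was at 5.35 and 12.4 CPM in bulk and 1.58, 3.92 and 3.44 CPM in GFP (-1.58 ± 0.46, edgeR adjusted p = 0.121). Igfbp5, which encodes an IGF-binding protein, was also below bulk in all GFP libraries (-0.72 ± 0.28, adjusted p = 0.265). Barx2, a homeobox gene, was above it (0.56 ± 0.19, adjusted p = 0.181). With the block 3 of the 21 were called lower and 4 higher, against 19.7% and 16.4% of all genes. The called genes included Wif1 (edgeR adjusted p = 4.95e-17), Igfbp5 (1.35e-07), Foxc1 (5.84e-05), Krt15 (5.37e-04) and Barx2 (0.00215). With the block and the trend removed 4 were lower and 7 higher, against 15.2% and 17.1% of all genes.

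**Figure D4:**
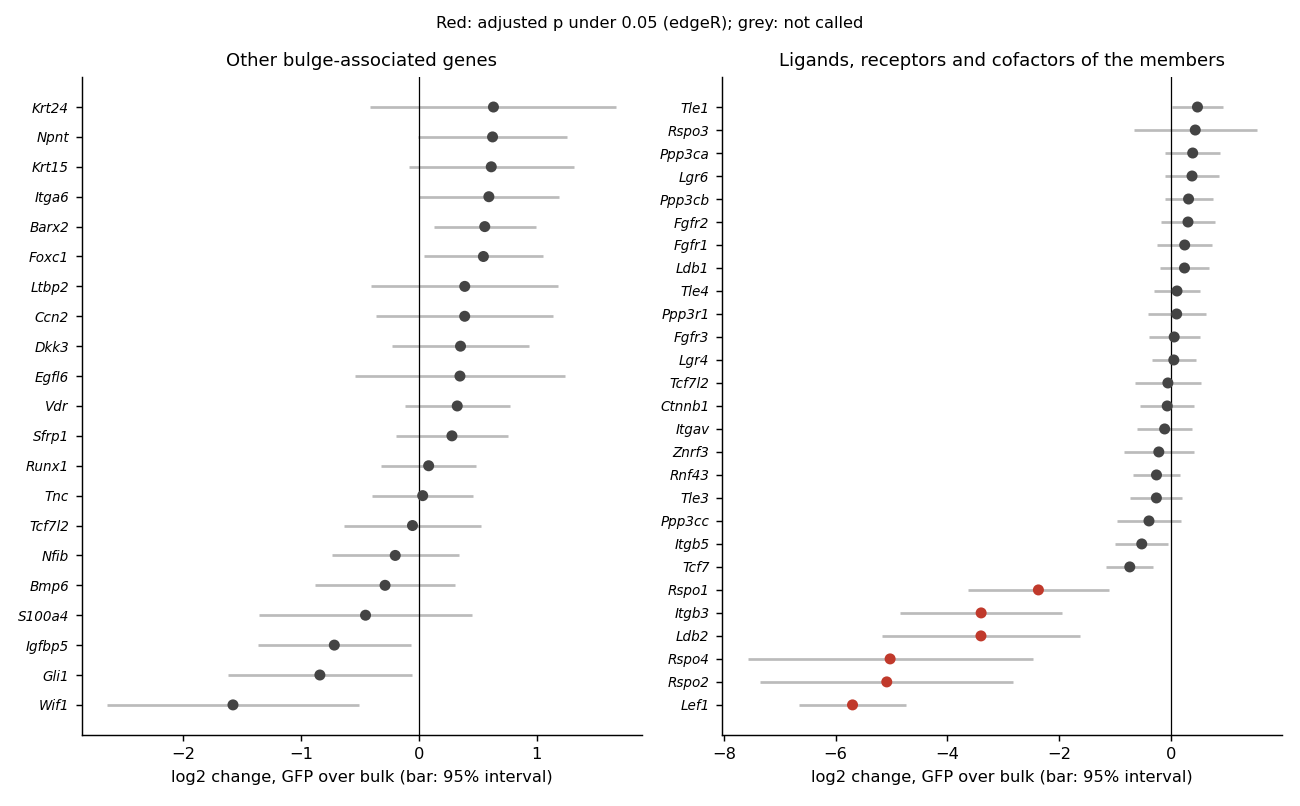
Log2 change (horizontal axis, GFP over bulk, with 95% interval) of 21 other bulge-associated genes (left) and 27 tested ligands, receptors and cofactors of the members (right); red points were called at an adjusted p under 0.05. No gene on the left was called, and the 6 called on the right, among them Lef1, Rspo1, Rspo2 and Rspo4, were all lower in GFP.

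Of 30 genes for ligands, receptors and cofactors of the members, 27 were tested. Of these 6 were lower and none was higher in GFP, against 5.14% and 0.145% of all genes. The median log2 change of the list was -0.07. With the block 8 were called lower and 3 higher, and 1 to 4 lower when 1 library was left out. Over all genes the block called 19.7% lower and 16.4% higher. R-spondin genes made up 3 of the 6 genes of the list called lower without the block. Rspo4, an R-spondin gene, had 90 and 901 counts in bulk and was at 0.0253, 0.407 and 0.0321 CPM in GFP (log2 change -5.03 ± 1.11, edgeR adjusted p = 0.0397). Rspo2 had 11 and 85 counts in bulk, and Rspo1 had 45 and 267. Their log2 changes were -5.08 ± 0.98 and -2.37 ± 0.55 (adjusted p = 0.023 and 0.0488). All 3 genes were under 0.5 CPM in every GFP library, and bulk 2 held more of each than bulk 1. Without bulk 2, Rspo4 and Rspo1 were not called (adjusted p = 0.362 and 0.73). Without GFP 1 none of the 3 was called (0.0801 for Rspo4, 0.0518 for Rspo2 and 0.0769 for Rspo1). Without GFP 3 neither Rspo4 nor Rspo1 was (0.059 and 0.0754), and without GFP 2 Rspo1 was not (0.129). Rspo1 was not called by limma-voom either (adjusted p = 0.0813). Rspo3 was at 4.33 and 3.07 CPM in bulk and 3.88, 2.69 and 8.41 CPM in GFP, highest in GFP 3 as was Lgr5. Of the other receptor genes, Lgr4 lay between 55.2 and 63.5 CPM in all 5 libraries, and Lgr6 had a log2 change of 0.38. Rnf43, whose product clears Wnt receptors, had a log2 change of -0.26. None of the 3 was called, but Lgr6 was with the block and the trend removed (edgeR adjusted p = 0.00456).

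Among TCF and LEF factors, which with TCF7L1 bind Wnt target genes, Lef1 was at 8.56 and 16.8 CPM in bulk and 0.165, 0.287 and 0.279 CPM in GFP. Its log2 change was -5.70 ± 0.42 (adjusted p = 3.14e-04, edgeR), and Lef1 is also a gene of the hair matrix. Tcf7, at 25.1 and 26.9 CPM in bulk, was at 15.3, 15.7 and 15.9 CPM in GFP (-0.74 ± 0.18, edgeR adjusted p = 0.0619), and it was called with the block (2.08e-05). Tcf7l2 lay between 15.3 and 24.7 CPM, with overlapping groups. Itgb3, an integrin subunit that binds periostin, and Ldb2, a LIM-domain cofactor, were the remaining calls, at under 1 CPM in every library. Itgb3 was not called without bulk 1 or bulk 2 (adjusted p = 0.1 and 0.119). Ldb2 was not without bulk 1, bulk 2, GFP 2 or GFP 3 (0.149, 0.459, 0.107 and 0.0578). Of the other integrin subunit genes in the list, Itgav had overlapping groups and was not called. Itgb5 was at 127 and 120 CPM in bulk and 91.0, 98.2 and 69.25 CPM in GFP 1, 2 and 3. The log2 change of Itgb5 was -0.52 ± 0.21 (edgeR adjusted p = 0.2655, and 0.0211 with the block). The cofactor gene Ldb1, at 262 and 274 CPM in bulk and 327, 307 and 317 CPM in GFP, had a log2 change of 0.24. The FGF receptor genes Fgfr1 and Fgfr2 had log2 changes of 0.25 and 0.31. The calcineurin subunit genes, which act upstream of NFATC1, went both ways. Ppp3ca and Ppp3cb had 0.39 and 0.32, Ppp3r1 had 0.10 with overlapping groups, and Ppp3cc had -0.39. In Ppp3cc every GFP library lay below both bulk libraries. Neither these genes nor Ldb1, Fgfr1 and Fgfr2 were called. Ppp3ca and Ppp3cb were called higher with the block (edgeR adjusted p = 0.0429 and 0.0314), and Fgfr1 and Fgfr2 with the block and the trend removed (0.0257 and 0.0455). With the block and the trend removed Ppp3cc was called lower (edgeR adjusted p = 0.0476). The CD200 receptor genes Cd200r1 and Cd200r4 had too few counts to be tested, and none in any GFP library.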

How the data were processed

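The authors deposited 1 table of raw counts, with a row for each versioned Ensembl mouse gene and a column for each library. STAR and the genome build GRCm39 come from the submitters' processing notes. The counting tool, annotation and strand setting were not given in the sources used here, so reads of overlapping antisense genes cannot be separated. Symbols came from GENCODE M21 (52073 of 56691 IDs matched).

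From these counts, edgeR 4.0.16 in R 4.3.3 was run with filterByExpr (minimum count 10, minimum total 15; 18583 genes kept), TMM scaling and group as the only term. The quasi-likelihood test was two-sided, with Benjamini-Hochberg adjustment over all genes and a threshold of 0.05 (3 residual degrees of freedom). CPM used the TMM-adjusted library sizes. As alternatives, scaling used upper quartiles, DESeq2 (1.42.0) size factors or only library size, and testing used the Wald test of DESeq2 or limma-voom (limma 3.58.1). Further ones were other filters, robust dispersion, each library left out, the title number as a block, and a loess trend (span 0.3) on length and GC content, centred per library and entered as an offset, with and without the block. Members and lists were chosen with earlier results of these data known. The rule for names took the 10 members, up to 4 genes of each list by smallest p, and the 3 genes nearest in pattern to Cd34 and to Lgr5. Not all of these are described, and other genes were named after their values were seen. Krt85 was not analysed here.

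The block was used because libraries sharing a title number deviated together: across genes, bulk 1 minus bulk 2 correlated with GFP 1 minus GFP 2 (Pearson r = 0.474; genes are not independent replicates). The trend on length was not removed before this correlation. Its Spearman rho was 0.0642 in bulk 1 and 0.266 in bulk 2, -0.344 in GFP 1 and -0.150 in GFP 2. The part of this trend in r was not tested. The block has 1 residual degree of freedom and gains nothing from GFP 3. No replicates were duplicates: chi-square per degree of freedom between their counts ran from 133.5 to 407.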

Additional observations from a re-analysis of the deposited data

How the results depend on the processing

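In the main analysis 982 of all genes were called. This count was 1498 with the DESeq2 Wald test, 1918 without a filter on low counts, 6692 with the replicate block, 5849 when the block was joined to removal of the trend on length and GC content, and 480 to 1205 when 1 library was left out, lowest without bulk 2 and at 523 without bulk 1. Of the bulge genes 0 were called lower and 0 higher. With the block 1 was lower (Fgf18) and 2 higher (Sox9 and Cd200), with the block and the trend removed 1 lower and 3 higher (Postn added), and without a filter 1 higher (Postn). Leaving out any library left both counts at 0 (0 to 0). The block changed no other call among the 10. Its calls for the other lists stand beside their counts. Lhx2 changed sign with the block (-0.139), with the block and the trend removed (-0.0884), without bulk 2 (-0.0864) and without GFP 3 (-0.154), and Fgf18 without bulk 1 (0.318); with 1 library left out Lhx2 ran from -0.154 to 0.314 and Fgf18 from -0.767 to 0.318. The other 8 members kept their sign in all 16 alternatives. The cause was not tested. Fits without a bulk library leave 1 in that group, whose spread is assumed to be that of the GFP libraries. The members had at least 189 counts in each library. With a minimum of 1 CPM in 2 libraries, which removes some low genes from the test, 1 of the ligand, receptor and cofactor genes was called in place of 6, Rspo4 missing the threshold with a log2 change of -5.07 (adjusted p = 0.0501).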
